A study of Mus musculus with 6 samples.

Results

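Interferon signalling factors, cytosolic RNA sensors and interferon-induced effectors were followed in murine pancreatic ductal adenocarcinoma (PDAC) cells through 9 genes. The genes were chosen by symbol, and all 9 were found among the 24421 rows of the expression table. The signalling factors were Stat2, Irf1 and Irf9, the RNA sensors were Ddx58 and Ifih1, and the effectors were Ifit2, Bst2, Irgm1 and Ifitm3. RNA was sequenced from 3 cultured lines named 2838c3, 6419c5 and 6499c4, supplied by another laboratory. Each line gave 1 library from cells kept in the solvent DMSO (vehicle) and 1 from cells given G-1 at 250 nM for 16 h, so there were 3 vehicle and 3 G-1 libraries. G-1 is a small molecule that activates GPER, the G protein-coupled oestrogen receptor. All 6 libraries came from tumour cells grown alone, and no genetic change was labelled as differing between the treatment groups. With 3 lines studied, a difference between lines describes these cultures and not a class of tumours. The labels name no separate cultures within a line and treatment.

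Type I interferons bind a receptor made of IFNAR1 and IFNAR2, whose kinases JAK1 and TYK2 phosphorylate STAT proteins, STAT2 among them. Phosphorylated STAT2 joins IRF9 in a complex, ISGF3, that binds the interferon-stimulated response element (ISRE) of target genes, while interferon gamma acts through the gamma-activated site (GAS). RIG-I, the product of Ddx58, and MDA5, the product of Ifih1, detect viral or misplaced cellular RNA in the cytosol and signal through MAVS to the production of interferon. Their genes are themselves induced by interferon. Tumour cells differ in how much of this programme they run without any added interferon.

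Recovered reads in genes numbered 5455990 to 8890821 per library. The epithelial markers Krt8, Krt18, Krt19 and Cdh1 were each at 169 FPKM or more in all 6 libraries. FPKM is fragments per kilobase of gene, here scaled by a size factor per library. Epcam ranged from 0.284 to 5.81 FPKM. Of 10 leukocyte markers, 3 were at 0 everywhere, Adgre1 and Siglech among them, and the pan-leukocyte gene Ptprc had at most 7 reads. The leukocyte list summed to 50.0 to 66.6 FPKM in the vehicle libraries and 41.1 to 67.4 FPKM in the G-1 libraries, most of it Cd14, with line means of 67.0 in 2838c3, 58.7 in 6419c5 and 45.5 in 6499c4. Of 4 endothelial markers none was at 0 throughout, and the list summed to 0.0665 to 1.82 FPKM; Cdh5 had 45 and 22 reads in 6419c5 and none in the other lines. Of 4 fibroblast markers Dcn and Lum were at 0, and the list summed to at most 0.334 FPKM. In such bulk libraries fewer cells that express a gene and less RNA per cell cannot be told apart.

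The starts of these genes are shown first because the letters that ISGF3 and related factors recognise can be read in them. Windows from 250 bases before to 50 bases after the start were taken from RefSeq (GRCm38.p6), where all 9 genes matched through 12 windows. The core of the ISRE, GAAANNGAAA searched on both strands, was present in 6 of the 9 genes: Stat2, Ddx58, Ifih1, Bst2, Irgm1 and Ifitm3. Of all 32851 windows of this length 3.44% held it, a share of windows and not of genes. Among 45 matched pathway genes above the level filter, from lists described further on, 5 held it. The GAS core TTCNNNGAA was present in 4 genes, Irf1, Ifit2, Bst2 and Ifitm3, against 8.30% of all windows and 11 of the 45 pathway genes. In the stretches below, each written 5′ to 3′ on the strand of the gene, capitals mark ISRE cores. The first 4 run from 150 bases before to 30 bases after the start, and that of Ifih1 covers bases 23 to 50 after the start.
Ifitm3, chr7:141010715-141010894, minus strand: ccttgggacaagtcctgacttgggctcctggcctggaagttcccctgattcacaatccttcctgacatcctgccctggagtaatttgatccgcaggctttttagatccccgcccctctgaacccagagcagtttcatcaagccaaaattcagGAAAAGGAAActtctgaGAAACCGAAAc
Bst2, chr8:71537443-71537622, minus strand: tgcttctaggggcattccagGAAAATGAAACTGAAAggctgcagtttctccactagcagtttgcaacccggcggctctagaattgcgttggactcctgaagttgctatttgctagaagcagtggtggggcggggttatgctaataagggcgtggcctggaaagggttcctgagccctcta
Ddx58, chr4:40239796-40239975, minus strand: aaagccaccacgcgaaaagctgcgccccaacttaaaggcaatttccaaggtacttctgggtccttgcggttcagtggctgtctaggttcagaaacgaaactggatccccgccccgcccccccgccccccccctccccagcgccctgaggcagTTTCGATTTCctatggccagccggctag
Irgm1, chr11:48871391-48871570, minus strand: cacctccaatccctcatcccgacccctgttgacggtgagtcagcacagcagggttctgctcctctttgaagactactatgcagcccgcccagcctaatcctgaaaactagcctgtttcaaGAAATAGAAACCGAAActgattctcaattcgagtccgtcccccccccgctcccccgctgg
Ifih1, chr2:62646206-62646233, minus strand: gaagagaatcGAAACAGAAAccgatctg
In Ifitm3 there are 2 separate cores, beginning at bases 3 and 20 after the start, and a GAS core begins between them at base 14 and overlaps the later one. A GAS core of Bst2, beginning 136 bases before the start, likewise overlaps an ISRE core. In Bst2 and in Irgm1 a pair of cores overlap and form a GAAA repeat, beginning 130 and 124 bases before the start in Bst2 and 30 and 24 bases before it in Irgm1. Ddx58 and Ifih1 have 1 core each, downstream of the start, and that of Ddx58 lies on the opposite strand. Stat2 has 1 core on the opposite strand, beginning 222 bases before its start. These are matches of letters, and binding was not measured.

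**Figure D1:**
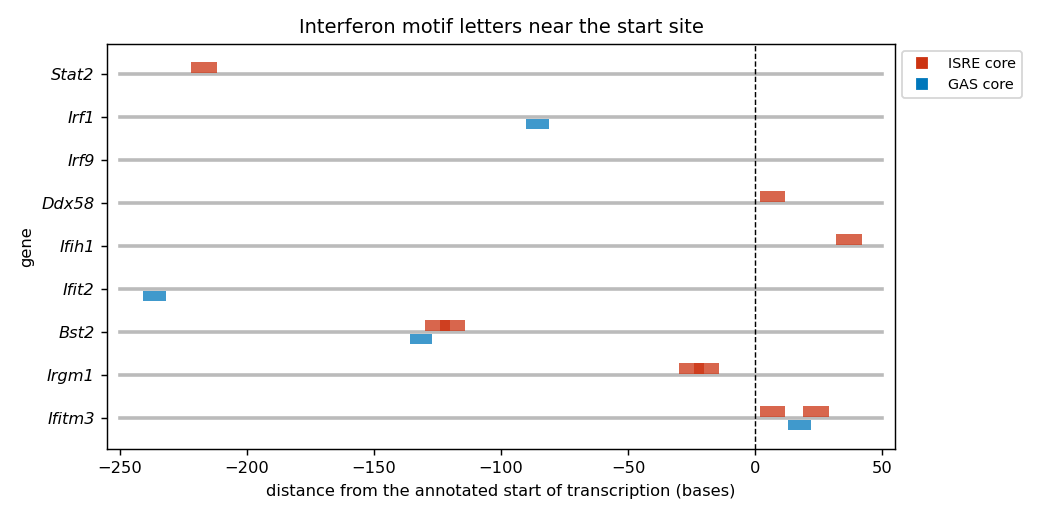
Positions of ISRE and GAS core matches from 250 bases before to 50 bases after the RefSeq start of the 9 genes (x axis in bases from the start, one line per gene, ISRE above and GAS below the line). Among the 6 genes with an ISRE core its position ranges from 222 bases before the start in Stat2 to 33 bases after it in Ifih1.

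By level, Bst2 was the highest of the 9 genes in 2838c3 and 6419c5, and Ifitm3 was the highest in 6499c4. The lines did not share a single order. For 6 of the 9 genes, Stat2, Irf1, Irf9, Ddx58, Ifih1 and Bst2, both libraries of 6419c5 lay above the other 4 libraries; 19.6% of all genes above the level filter showed this. For Stat2, Irf9, Ddx58 and Ifit2 both libraries of 6499c4 lay below the other 4 (all genes: 23.1%), and for Irf1, Ifih1, Irgm1 and Ifitm3 both libraries of 2838c3 did (all genes: 24.2%). Ifitm3 was the 1 gene with both libraries of 6499c4 above the rest (all genes: 21.9%). For single genes it is also stated further on that the lines did not overlap at all. The share of all genes with such full separation was not counted, so it describes levels and does not set these genes apart. For Ifih1 and Ifitm3 it is also tied to the filter described next. All 9 genes had a mean over the 6 libraries of at least 1 FPKM, the filter for testing, but within a line the mean was below 1 FPKM for Ifih1 and Ifitm3 in 2838c3 and for Ddx58 in 6499c4. Ifitm3 and Ifih1 reached the filter through the lines in which they were high, so a difference between lines was built into their selection for testing. Ddx58 was below the filter in 6499c4 alone, so the same limit holds for its differences from that line.

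**Figure D2:**
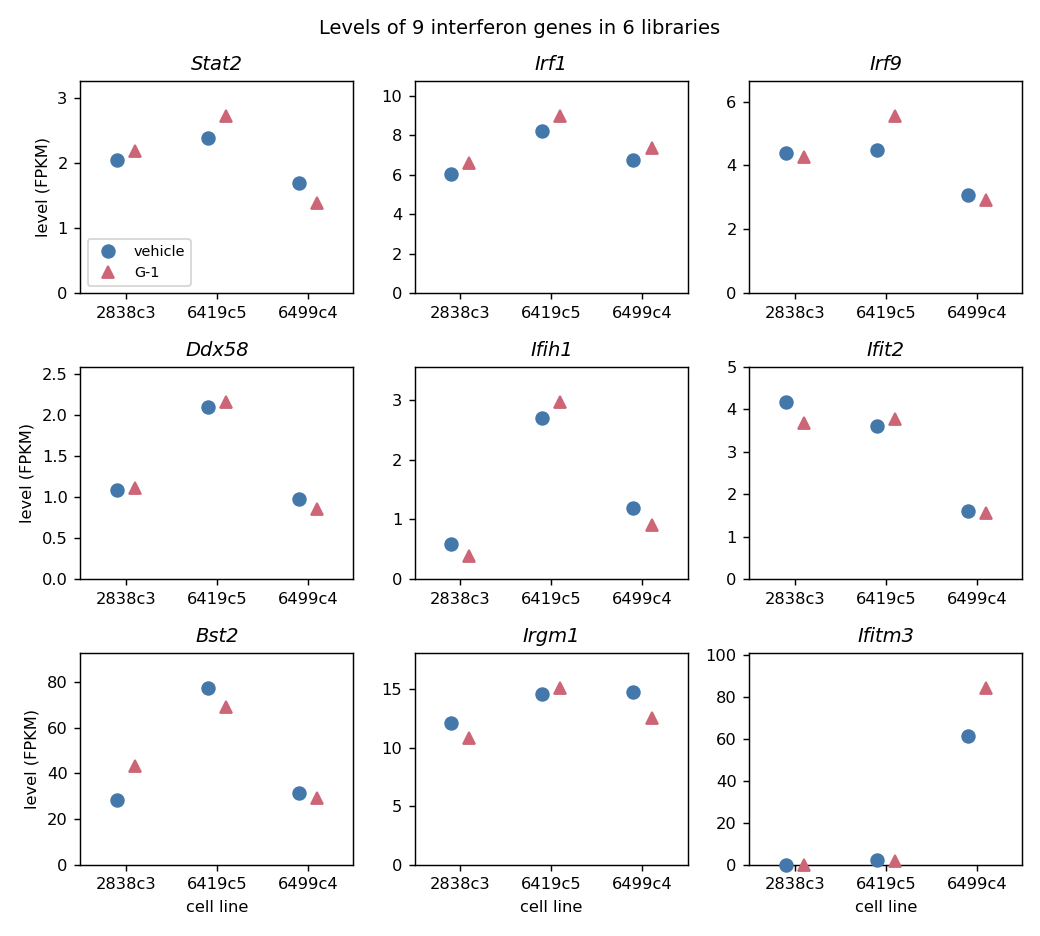
FPKM of the 9 genes in each of the 6 libraries (y axis, linear from 0, one panel per gene), with circles for vehicle and triangles for G-1 in each line. The 6419c5 libraries lie highest for 6 genes, the 2838c3 libraries of Bst2 lie on either side of those of 6499c4, and Ifitm3 runs from 0 in 2838c3 to 84.5 FPKM in 6499c4.

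Lines were compared on log2(FPKM + 1) with limma, in a model with line and treatment over 10748 genes; adjusted p-values are Benjamini-Hochberg values over all of these, with a threshold of 0.05. The 2 libraries of a line differ in treatment and are not repeats of 1 condition. The 3 comparisons share libraries, and the scale understates differences of low genes. Against 2838c3, 6 of the 9 genes were higher in 6419c5 and none was lower; over all genes 51.5% passed, 26.2% higher and 25.3% lower. Against 6419c5, 6 of the 9 genes were lower in 6499c4 and 1 was higher, where 45.0% of all genes passed, 23.7% lower and 21.3% higher. Between 6499c4 and 2838c3, 1 gene was higher and 2 were lower, where 55.6% of all genes passed, 26.6% higher and 28.9% lower. Ifitm3 counts among the calls of all 3 comparisons, and Ifih1 among those between 6419c5 and each other line. Ddx58 also counts among those between 6419c5 and each other line, and its mean in 6499c4 was below the filter. For Ifitm3 and Ifih1, and for Ddx58 against 6499c4, a difference between lines was built into their selection. Those calls are no support for a difference. The median difference of the 9 genes was 0.39 for 6419c5 against 2838c3, -0.58 for 6499c4 against 6419c5 and -0.13 for 6499c4 against 2838c3; the medians of all genes were 0.00058, 0.0060 and -0.0051. With single libraries left out the 6 calls of 6419c5 against 2838c3 fell to 3 without the 2838c3 vehicle, the 2838c3 G-1 or the 6419c5 G-1 library. The 7 calls of 6499c4 against 6419c5 fell to 3 without the 6419c5 G-1 library and to 4 without the 6499c4 G-1 library.

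**Figure D3:**
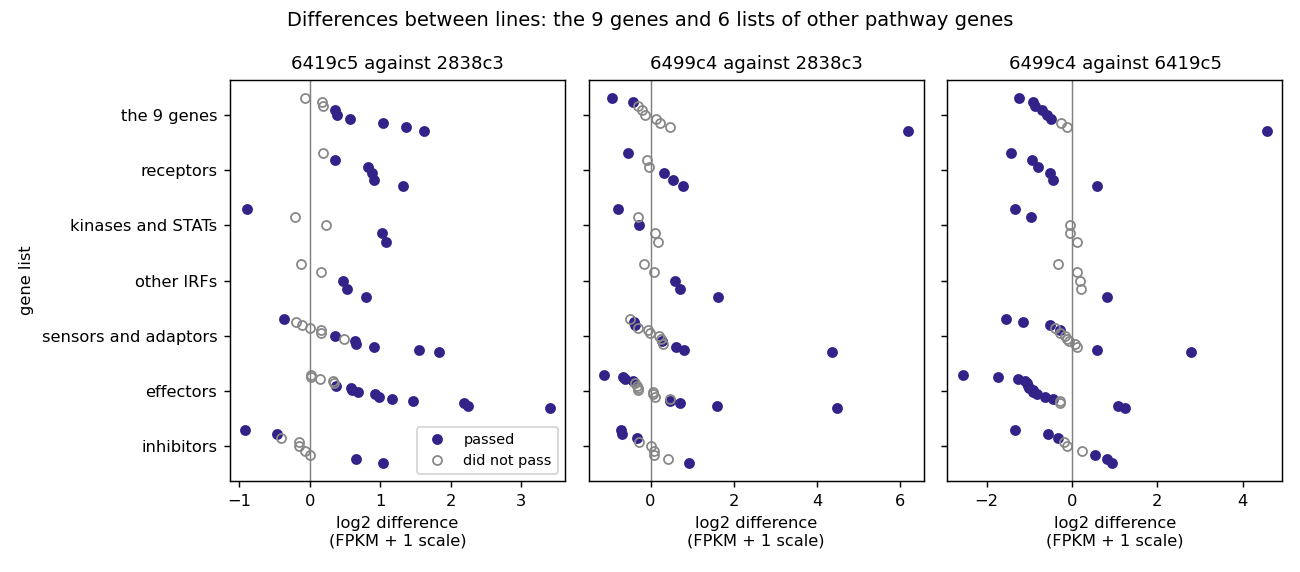
Differences between lines on the log2(FPKM + 1) scale (x axis), one panel per pair of lines, with 1 point per tested gene for the 9 genes (top) and for 6 lists of other pathway genes described further on. Filled points had a limma adjusted p under 0.05 and no error bars are drawn; for 6499c4 against 6419c5 Ifitm3 reaches 4.58, opposite in sign to the other 8 genes.

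Where a pair of values is given for a line, vehicle comes first and G-1 after it. Among the signalling factors, Irf1 was the most abundant and the 6419c5 libraries were highest for all 3. Irf1, a transcription factor that is quickly induced by interferon gamma and binds ISRE-like sites, stood at 6.05 FPKM with vehicle and 6.59 with G-1 in 2838c3, with 8.25 and 8.97 in 6419c5 and levels of 6.76 and 7.35 in 6499c4. The 3 lines did not overlap, with 6419c5 highest and 2838c3 lowest. Irf1 was 1.36-fold higher by mean FPKM in 6419c5 than in 2838c3 (log2 difference 0.39, SE 0.11, limma adjusted p = 0.0227). Its values in 6499c4 differed from those in 2838c3 by 0.14 (SE 0.11, limma adjusted p = 0.329) and from those in 6419c5 by -0.25 (SE 0.11, limma adjusted p = 0.105).

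Stat2, the STAT of the ISGF3 complex that is specific to type I and III interferon, was at 2.05 and 2.19 FPKM in 2838c3, with 2.39 and 2.72 in 6419c5 and levels of 1.69 and 1.39 in 6499c4. The 3 lines did not overlap. The 1.66-fold higher level in 6419c5 than in 6499c4 was at the threshold (log2 difference -0.49 for 6499c4 against 6419c5, SE 0.17, limma adjusted p = 0.0495). Irf9, the DNA-binding partner of Stat2, was at 4.39 and 4.27 FPKM in 2838c3, with 4.48 and 5.54 in 6419c5 and levels of 3.09 and 2.92 in 6499c4. Both 6499c4 libraries were below the rest. Irf9 was lower in 6499c4 than in 6419c5 by a log2 difference of -0.58 (SE 0.15, limma adjusted p = 0.0161) and lower than in 2838c3 by -0.41 (SE 0.15, limma adjusted p = 0.0465).

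The calls on the signalling factors depended on single libraries and settings. That of Irf1 between 6419c5 and 2838c3 ended without any 1 of the 4 libraries of these lines (limma adjusted p = 0.102 to 0.113). That of Stat2 ended without any 1 of the 6 libraries (0.0501 to 0.256), with a pseudocount of 0.1 FPKM (0.0556) and without the level filter (0.0781). That of Irf9 between 6499c4 and 2838c3 likewise ended without any 1 library (0.0541 to 0.236) and without the level filter (0.0985). The call of Irf9 between 6499c4 and 6419c5 ended without the G-1 library of 6419c5 (0.153) or of 6499c4 (0.0789). In the GENCODE M21 annotation, exons of Irf9 overlap those of Rnf31 on the same strand and exons of Irf1 overlap those of Gm17334 on the opposite strand. How shared reads were assigned is among the steps not given in the sources used here.

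Both RNA sensors were most abundant in 6419c5. Ifih1 encodes MDA5, which binds long double-stranded RNA. It stood at 0.593 FPKM (28 reads) with vehicle and 0.382 (18 reads) with G-1 in 2838c3, with 2.69 (106 reads) and 2.96 (89 reads) in 6419c5 and levels of 1.19 (60 reads) and 0.904 (40 reads) in 6499c4. The 3 lines did not overlap, with 6419c5 highest and 2838c3 lowest. By mean FPKM Ifih1 was 5.80-fold higher in 6419c5 than in 2838c3 (log2 difference 1.37). It was 2.70-fold higher in 6419c5 than in 6499c4 (log2 difference -0.91 for 6499c4 against 6419c5). The difference between 6499c4 and 2838c3 was 0.46, and 1.11 on the recovered reads with limma-voom. Ifih1 reached the filter through the lines where it was high, so its tests between lines are not given.

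Ddx58 encodes RIG-I, which binds short RNA with a 5′ triphosphate. It stood at 1.09 FPKM (46 reads) and 1.11 (47 reads) in 2838c3, with 2.10 (74 reads) and 2.16 (58 reads) in 6419c5 and levels of 0.972 (44 reads) and 0.858 (34 reads) in 6499c4. All 3 lines were separate, with the step between 2838c3 and 6499c4 the smaller. How many of all genes showed such separation was not counted. By mean FPKM Ddx58 was 1.93-fold higher in 6419c5 than in 2838c3 (log2 difference 0.57, SE 0.17, limma adjusted p = 0.0275). It was 2.32-fold higher in 6419c5 than in 6499c4 (log2 difference -0.71 for 6499c4 against 6419c5). The values of 6499c4 and 2838c3 differed by -0.13. The mean of Ddx58 in 6499c4 was below the filter, so its tests against that line are not given. The call of Ddx58 against 2838c3 ended without any 1 of the 4 libraries of these lines (0.105 to 0.175) and with quantile scaling (0.13). For 6499c4 against 6419c5 its difference was -0.74 without the vehicle library of 6419c5 and -0.68 without the G-1 library of 6419c5. It was -0.65 without the G-1 library of 6499c4. For Ifih1 the difference between 6499c4 and 6419c5 was -0.75 without the G-1 library of 6419c5.

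The 4 effectors did not move as 1 group: Bst2 was highest in 6419c5, Ifit2 was lowest in 6499c4, Irgm1 varied little and Ifitm3 was highest in 6499c4. Bst2 encodes tetherin, a membrane protein that holds budding virus at the cell surface. It was at 28.2 FPKM (185 reads) with vehicle and 43.1 (282 reads) with G-1 in 2838c3, with 77.5 (424 reads) and 69.1 (288 reads) in 6419c5 and levels of 31.4 (220 reads) and 29.3 (180 reads) in 6499c4. The 6419c5 libraries were above all others, while 6499c4 lay between the 2 libraries of 2838c3. By mean FPKM Bst2 was 2.05-fold higher in 6419c5 than in 2838c3 (log2 difference 1.05, SE 0.17, limma adjusted p = 0.00198) and 2.42-fold higher than in 6499c4 (-1.24 for 6499c4 against 6419c5, SE 0.17, limma adjusted p = 0.00104). Both calls held in every alternative in which Bst2 was tested. Between 6499c4 and 2838c3 its difference was -0.20 (SE 0.17, limma adjusted p = 0.354); it was -0.56 (adjusted p = 0.00451) without the 2838c3 vehicle library and 0.16 without the 2838c3 G-1 library.

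Ifit2 encodes a tetratricopeptide-repeat protein that restrains viral translation. It stood at 4.17 FPKM with vehicle and 3.68 with G-1 in 2838c3, with 3.62 and 3.77 in 6419c5 and levels of 1.60 and 1.55 in 6499c4. The 2838c3 and 6419c5 libraries overlapped, with a difference of -0.07 (SE 0.15, limma adjusted p = 0.722), and both 6499c4 libraries were below them. Ifit2 was 2.34-fold higher by mean FPKM in 6419c5 than in 6499c4 (-0.86 for 6499c4 against 6419c5, SE 0.15, limma adjusted p = 0.00298), and 6499c4 differed from 2838c3 by -0.93 (SE 0.15, limma adjusted p = 0.00147). Both calls held in every alternative in which Ifit2 was tested. The neighbouring family members were scarcely detected: Ifit1 had 0 to 4 reads and Ifit3 0 to 9 reads per library, although each has ISRE cores in its window.

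Irgm1 encodes an immunity-related GTPase that acts on membranes around intracellular pathogens. It was at 12.1 and 10.8 FPKM in 2838c3, with 14.6 and 15.1 in 6419c5 and levels of 14.8 and 12.5 in 6499c4. The 2838c3 libraries were the lowest, and the other 2 lines overlapped. Irgm1 was 1.30-fold higher by mean FPKM in 6419c5 than in 2838c3 (log2 difference 0.35, SE 0.11, limma adjusted p = 0.0286). That call ended without the vehicle (0.0852) or G-1 (0.139) library of 2838c3, without the G-1 library of 6419c5 (0.216) and without the level filter (0.0547). The related genes Irgm2 and Igtp had at most 18 and 22 reads per library.

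Ifitm3, which encodes a membrane protein that blocks the fusion of entering viruses, had the widest range of the 9 genes. It had 0 reads in both libraries of 2838c3, 10 reads (2.16 FPKM) and 7 reads (1.98 FPKM) in 6419c5, and 366 reads (61.7 FPKM) and 439 reads (84.5 FPKM) in 6499c4. The 3 lines did not overlap. A count of 0 allows up to 3 reads per library, a mean of 0.542 FPKM for Ifitm3 in 2838c3. The mean FPKM of Ifitm3 was 135-fold that floor in 6499c4 and 3.82-fold in 6419c5. The floor allows for counting error in 2838c3 only. The 6419c5 mean rests on 10 and 7 reads, so 3.82 is not a lower bound. By mean FPKM Ifitm3 was 35.3-fold higher in 6499c4 than in 6419c5 (log2 difference 4.58). It reached the filter through the lines where it was high, so its tests between lines are not given. The close relative Ifitm2 was at 44.2 and 55.7 FPKM in 2838c3, with 64.5 and 61.8 in 6419c5 and levels of 122 and 190 in 6499c4. Ifitm2 was higher in 6499c4 than in 2838c3 by 1.60 (SE 0.15, limma adjusted p = 1.08e-04) and than in 6419c5 by 1.26 (SE 0.15, limma adjusted p = 4.80e-04). Ifitm1 had 0 to 5 reads. Reads that fit more than 1 Ifitm gene may have been split between them or dropped.

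Across the 6 libraries, which share cell lines in pairs, the levels of Stat2 and Irf9 ran most closely together among the 9 genes (Pearson r = 0.967 on log2(FPKM + 1)), and Ddx58 and Bst2 came next (r = 0.952). Ifit2 and Ifitm3 ran most in opposition (r = -0.977). These values describe 3 lines rather than 6 independent samples. Genes like the mean standardised pattern of the 9 were sought among 2999 genes above the filter and outside the pathway lists described further on. These 2999 were chosen to vary, with a range of at least 1 on the log2(FPKM + 1) scale, and were not matched for level. The closest over the 6 libraries were Klhdc8a (r = 0.997), Bach1 (0.996), Krtcap3 (0.996), Clca3a1 (0.995) and C9 (0.994).

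The rest of the pathway was read from lists of 110 further genes, of which 109 matched a row. Of these, 54 were at or above the filter, 43 had reads but lay below it, and 12 were at 0 in all libraries. In 6419c5 against 2838c3, 29 of the 54 tested genes were higher and 4 were lower, with a median difference of 0.42; of all genes 26.2% were higher and 25.3% lower. In 6499c4 against 6419c5, 9 were higher and 26 lower, with a median of -0.30, where 21.3% of all genes were higher and 23.7% lower. In 6499c4 against 2838c3, 15 were higher and 12 lower, with a median of 0.06; these make up 50.0% of the 54, below the 55.6% of all genes. Both libraries of 6419c5 were above the other 4 for 24 of the 54 and below them for 5, where 19.6% and 18.5% of all genes were. Among the 54 are 7 genes whose mean in at least 1 line was below 1 FPKM, so that a difference between lines was built into their selection.

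Of the 11 interferon genes searched, 10, among them Ifnb1, had no read in any library, and Ifne had 0 to 2 reads. The floor of 3 reads is 0.337 to 0.550 RPM (reads scaled to the total in genes) over the 6 libraries. All 6 receptor genes were tested. In 6419c5 against 2838c3, 5 of the 6 were higher and none was lower, and in 6499c4 against 6419c5, 5 were lower and 1 was higher. Of all genes, 26.2% were higher and 25.3% lower in the first comparison, and 23.7% lower and 21.3% higher in the second. Ifnar2, a chain of the type I receptor, was at 9.61 and 8.82 FPKM in 2838c3, with 18.0 and 17.8 in 6419c5 and levels of 5.23 and 6.84 in 6499c4. Its difference was 0.89 for 6419c5 against 2838c3 (SE 0.13, limma adjusted p = 0.00134) and -1.44 for 6499c4 against 6419c5 (SE 0.13, limma adjusted p = 1.84e-04). Il10rb and Ifnlr1, the chains of the type III receptor, were higher in 6419c5 than in 2838c3 by 1.32 and 0.91. Ifnar1, the other type I chain, was higher by 0.36 (SE 0.11, limma adjusted p = 0.0273), a call that ended without any 1 of the 4 libraries (0.0526 to 0.183) and without the level filter (0.0535).

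Of 5 kinases and STATs, 2 were higher in 6419c5 than in 2838c3, among them Stat3 by 1.08, and 1, Jak2, was lower by -0.90. Of all genes 26.2% were higher and 25.3% lower in that comparison. Among the other IRF genes 5 of 9 were tested. Of these, 3 were higher in 6499c4 than in 2838c3, among them Irf3 by 0.71 (SE 0.11, limma adjusted p = 0.00104), where 26.6% of all genes were higher. Of 13 tested sensors and adaptors, 6 were higher and 1 lower in 6419c5 than in 2838c3, where 51.5% of all genes passed in either direction. In 6499c4 against 6419c5, 2 were higher and 4 lower, where 45.0% of all genes passed. Tmem173, which encodes the DNA-sensing adaptor STING, followed the order of Ifitm3: it was at 0.254 and 0.102 FPKM in 2838c3, with 2.61 and 2.31 in 6419c5 and levels of 22.6 and 23.6 in 6499c4. Its mean in 2838c3 was below the filter, which it reached through the lines where it was high, so its tests are not given. Mavs, the adaptor of both RNA sensors, was at 16.4 and 16.3 FPKM in 2838c3, with 15.8 and 14.4 in 6419c5 and levels of 12.0 and 12.4 in 6499c4. Mavs was thus below the others in 6499c4. Its difference was -0.40 against 2838c3 (SE 0.10, limma adjusted p = 0.0111) and -0.28 against 6419c5 (SE 0.10, limma adjusted p = 0.0487). The call against 2838c3 ended without the vehicle or G-1 library of 2838c3 or the vehicle library of 6499c4. That against 6419c5 ended without any 1 of the 6 libraries, with quantile scaling, and without the level filter or the variance trend. Dhx58, the sensor LGP2, had 0 to 12 reads.

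Of 16 tested effectors, 11 were higher and none was lower in 6419c5 than in 2838c3, and 12 were lower and 2 higher in 6499c4 than in 6419c5; of all genes 51.5% and 45.0% passed in these comparisons in either direction. Ifi27 was at 6.44 and 5.79 FPKM in 2838c3, with 35.9 and 30.2 in 6419c5 and levels of 4.15 and 5.45 in 6499c4, a difference of 2.26 for 6419c5 against 2838c3 (SE 0.15, limma adjusted p = 4.25e-05). Xaf1, an antagonist of the apoptosis inhibitor XIAP, was at 0.180 and 0.0451 FPKM in 2838c3, with 4.47 and 3.68 in 6419c5 and levels of 0.294 and 0.816 in 6499c4; it reached the filter through 6419c5 alone, so its test is not given. Lgals3bp, a secreted galectin-binding glycoprotein, had another order: it was at 11.9 and 11.5 FPKM in 2838c3, with 135 and 132 in 6419c5 and levels of 266 and 298 in 6499c4. B2m, the light chain of MHC class I, was lower in 6499c4 than in 6419c5 by -1.26 (SE 0.08, limma adjusted p = 2.41e-05) and than in 2838c3 by -1.12 (SE 0.08, limma adjusted p = 2.73e-05).

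A further 31 effectors had reads but lay below the filter, and 28 of these had their highest line mean in 6419c5, where 36.7% of all 4964 genes below the filter did. Their summed level was 1.45 and 1.75 FPKM in 2838c3, with 13.0 and 13.7 in 6419c5 and levels of 3.67 and 2.22 in 6499c4, from 38 to 220 reads per library. Of these 31, 12 had at most 3 reads in every library. Isg15, a ubiquitin-like protein and a usual marker of the type I response, had 0 to 4 reads although its window holds 3 overlapping ISRE cores. Usp18, which removes ISG15 and dampens the receptor, had 12 and 9 reads in 6419c5 and 0 to 1 reads in the other lines. Of 9 tested inhibitors, 2 were higher and 2 lower in 6419c5 than in 2838c3, where 26.2% of all genes were higher and 25.3% lower. Socs3, which inhibits JAK kinases, was higher in 6419c5 than in 2838c3 by 0.66 (SE 0.11, limma adjusted p = 0.00218) and lower in 6499c4 than in 6419c5 by -1.34 (SE 0.11, limma adjusted p = 1.04e-04).

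G-1 against vehicle asks whether these genes differed after 16 h with the compound. Activation of the receptor was not measured in these libraries. None of the 9 genes passed the test with cell line as block, where 0.0279% of all genes, 3 of 10748, passed, 0.0093% higher and 0.0186% lower. None had an unadjusted p under 0.05 either, against 10.1% of all genes. Their limma adjusted p-values ran from 0.705 to 0.989, and their median difference was 0.0091, against -0.0063 for all genes. On recovered reads limma-voom called 181 genes (1.61%) and none of the 9, with 1 of them, Ifitm3, at an unadjusted p under 0.05 (log2 difference 0.43, SE 0.16, adjusted p = 0.176). Of the 54 tested pathway genes none passed. Furthest from 0 were Socs1 at 0.45 (SE 0.24, limma adjusted p = 0.557) and Ifitm2 at 0.30 (SE 0.12, limma adjusted p = 0.470). Reads of Socs1 went from 18 to 48 in 6499c4, from 8 to 14 in 2838c3 and from 31 to 20 in 6419c5. Ifitm2 passed with limma-voom (0.41, adjusted p = 0.0271).

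The intervals show how large a response the 3 pairs could have hidden on the log2(FPKM + 1) scale. For Irf1 the mean difference was 0.11 with a 95% interval of -0.11 to 0.32, and the G-1 library was 1.09-fold the vehicle library in each of the 3 lines; 15.4% of all genes were higher in all 3 lines. For Stat2 the difference was 0.0091 (-0.31 to 0.33), for Irf9 0.054 (-0.23 to 0.34), for Ddx58 -0.013 (-0.35 to 0.32) and for Ifih1 -0.10 (-0.46 to 0.25). For Ifit2 it was -0.043 (-0.33 to 0.24), for Irgm1 -0.11 (-0.31 to 0.099), for Bst2 0.11 (-0.21 to 0.44) and for Ifitm3 0.12 (-0.19 to 0.43). None of these intervals reaches 1 in either direction, a doubling or halving of FPKM + 1. For low genes such as Ifih1, a doubling or halving of FPKM itself is a smaller step on this scale. Staying under 1 therefore does not leave out such a change. Ifitm3 had 0 reads in both libraries of 2838c3, which entered as a difference of 0.

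Within single lines, the ratio of G-1 to vehicle reads can be set against counting error only, by exact binomial 95% intervals, which do not include variation between cultures. Of 26 ratios, that is 9 genes in 3 lines without Ifitm3 in 2838c3, 2 had intervals that left out 1. Over all genes above the filter 27.8% of 32053 such ratios did. Low counts widen these intervals and the sets were not matched for reads, so these shares do not compare the size of responses. Bst2 in 2838c3 went from 28.2 to 43.1 FPKM, a ratio of 1.53 (1.27 to 1.85), while its ratio was 0.891 (0.765 to 1.04) in 6419c5 and 0.934 (0.763 to 1.14) in 6499c4. Ifitm3 in 6499c4 went from 61.7 to 84.5 FPKM, a ratio of 1.37 (1.19 to 1.58), and in 6419c5, with 10 and 7 reads, its ratio was 0.919 (0.297 to 2.67). The ratio of Ifih1 was 0.645 (0.336 to 1.21) in 2838c3, 1.10 (0.822 to 1.47) in 6419c5 and 0.761 (0.497 to 1.15) in 6499c4. None of the 9 genes had intervals on opposite sides of 1 in different lines, which 5.64% of all genes had. With 1 pair of libraries per line, differences in response between the lines were not tested.

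**Figure D4:**
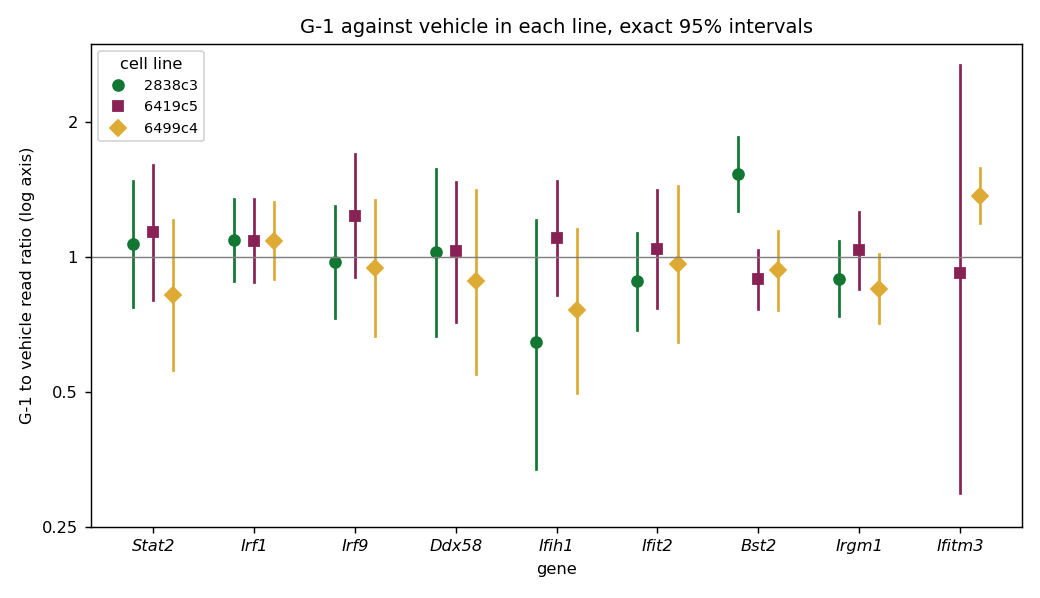
Ratio of G-1 to vehicle for the 9 genes in each line on a logarithmic axis, with exact binomial 95% intervals of the read counts as vertical bars. Of 26 intervals all but 2 include 1; those of Bst2 in 2838c3 (1.53) and Ifitm3 in 6499c4 (1.37) do not.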

How the data were processed

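RNA from 6 libraries was analysed. The authors deposited FPKM per gene symbol; per the submitters' processing notes STAR and DESeq2 were used, with no role stated. The genome build, annotation, strandedness and counting rule were steps not given in the sources used here. FPKM moved in equal steps within each gene, so whole reads were recovered for 15712 of 15712 genes above 0 (tolerance 0.01 reads).

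Values were tested as log2(FPKM + 1) with limma 3.58.1 (R 4.3.3) for the 10748 genes whose mean reached 1 FPKM, two-sided, with line and treatment as terms and a variance trend (2 residual and 5.35 prior degrees of freedom). Line pairs the libraries by design: deviations from the treatment means correlated at 0.906, 0.871 and 0.882 between both libraries of 2838c3, 6419c5 and 6499c4. limma-voom used genes with at least 60 recovered reads in all. As nothing labels separate cultures, p-values measure the spread between these libraries, which may be technical. Intervals and floors cover counting error only. Alternatives were pseudocount, filter, scaling, variance trend, voom, block and left-out libraries.

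The 9 genes and the lists were chosen with earlier results of these data known. Named were all 9, fixed pathway genes, and from each list up to 3 genes with the largest differences; Ifit, Irg and Ifitm relatives were added by family. Some items that this rule selects are not reported here.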

Additional observations from a re-analysis of the deposited data

Results flagged for a closer look

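For 2 of 63 genes above the filter, the 9 and the pathway lists together, the ratio of G-1 to vehicle reads had exact binomial 95% intervals on opposite sides of 1 in different lines; 5.64% of all 10747 genes above the filter showed this. Tlr3, an endosomal sensor of double-stranded RNA, had a ratio of 1.41 (1.02 to 1.95) in 2838c3 and 0.636 (0.471 to 0.854) in 6499c4, and 0.807 (0.593 to 1.09) in 6419c5. Ifi204, a sensor of DNA, had a ratio of 1.42 (1.08 to 1.86) in 6419c5, 0.501 (0.278 to 0.878) in 2838c3 and 0.809 (0.506 to 1.28) in 6499c4. The difference between lines was not tested, since each line has 1 pair of libraries.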

How the results depend on the processing

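With the libraries not paired by line (no replicate block) 0 genes passed for G-1, against 3 with the block, and none of the 9 passed either way. The count of genes for G-1 was 1 with a pseudocount of 0.1 FPKM, 0 with no filter, 6 with a filter of 5 FPKM, 0 without the variance trend, 181 with limma-voom and 0 to 28 with 1 line left out. None of the 9 passed for G-1 in any of the 10 alternatives. With a filter of 5 FPKM, which tests fewer of the 9, their calls fell from 3 to 1 for 6499c4 against 2838c3 and from 7 to 2 for 6499c4 against 6419c5. With 1 library left out, their calls ranged from 3 to 6 for 6419c5 against 2838c3, from 2 to 3 for 6499c4 against 2838c3 and from 3 to 6 for 6499c4 against 6419c5, and calls over all genes ranged from 3557 to 5986 (5533 with all libraries), 4597 to 5685 (5973) and 2664 to 4832 (4836).

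Signs turned for differences near 0. For G-1, with 1 line left out, values ranged from -0.13 to 0.25 for Bst2, -0.034 to 0.023 for Ddx58, -0.088 to 0.0075 for Ifit2, -0.041 to 0.22 for Ifitm3, -0.046 to 0.11 for Irf9 and -0.053 to 0.099 for Stat2. They ranged from -0.12 to 0.0078 for Ifnar1, -0.062 to 0.16 for Ifnar2, -0.064 to 0.020 for Mavs, -0.36 to 0.022 for Nmi, -0.36 to 0.049 for Tlr3 and -0.013 to 0.15 for Tyk2. With quantile scaling Stat2 was -0.0073. Between lines, with 1 library left out, Ifit2 ranged from -0.14 to 0.0072 (6419c5 against 2838c3), Bst2 from -0.56 to 0.16 and Ifnar1 from -0.20 to 0.031 (both 6499c4 against 2838c3). The causes were not tested. Read counts were lowest for Ddx58, Ifih1 and Ifitm3, whose lowest libraries had 34, 18 and 0 reads.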
